A study of Mus musculus with 2 samples.

Results

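The regions described here are the EHMT2 peaks at the promoters of noncoding RNA genes and pseudogenes in mouse embryonic stem cells (mESCs). A peak was a member if its summit, the base with the highest fragment coverage, lay from 2.5 kb upstream to 0.5 kb downstream of the transcription start site (TSS) of a GENCODE record other than protein-coding, on chromosomes 1 to 19 or X, and in the same window of no protein-coding gene. Of 12556 deposited peaks, 12541 lay on these chromosomes and 369 (2.94%) met the rule, while 303 lay at protein-coding promoters and 11869 elsewhere. A further 22 summits lay in windows of both kinds and were counted as protein-coding. Values of the peaks played no part in the choice. The deposited list is shorter than the number of ChIP-exo peaks given in the study, and it was not established that they are the same list, so shares hold for the deposited peaks.

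EHMT2 occupancy was mapped by ChIP-exo, in which exonuclease trims immunoprecipitated DNA to the crosslinked protein, with an antibody against the HA tag. The cells were the BL6/129 hybrid ESC line EHMT2-dTAG-mcherry, in which EHMT2 carries a degron and HA at its end, grown on feeders in serum and LIF and given DMSO for 24 h, so that EHMT2 was present. The 2 replicates of this 1 group were pooled before peaks were called, no library without the tag or without EHMT2 was analysed here, and whether the replicates came from separate clones is not given in the labels. Peaks carry no expression values, so the cell type could not be checked against marker genes.

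EHMT2 (G9a) is the methyltransferase that, with its partner EHMT1, deposits dimethylation on lysine 9 of histone H3, a mark of silenced euchromatin. Noncoding records are a mixed group. Long intergenic (lincRNA) and antisense transcripts have promoters of their own, processed pseudogenes are retrocopies of spliced mRNAs that were inserted without the promoter of their parent, unprocessed pseudogenes are decayed gene duplicates, and the TEC class of GENCODE holds loci that still await experimental evidence. Many snRNA, snoRNA and miRNA records begin at the end of a short RNA or a hairpin and not at the start of a primary transcript.

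Reads with several equally good sites were written by the authors at a randomly drawn one of them. A peak at a repeated sequence is therefore a peak of that sequence family, and its exact position among identical copies is not known. To mark this, the 50 bp centred on each summit (the summit 50-mer) were counted over the assembled chromosomes on both strands. The sequence was found at no other site for 87 of the 369 members (23.6%, 95% Wilson interval 19.5 to 28.2%), and these are called unique. The median member had 77 copies.

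The sequences at the summits show this range. The first line gives the member with the highest significance, and the others the most significant unique summit of each gene type with at least 10 members, followed by 2 unique summits within 200 bp downstream of a TSS. None of the 14 snRNA members had a unique summit. Each line is the summit base and 50 bp on either side, from the plus strand of GRCm38.p6 (RefSeq sequence, mm10 coordinates) with the summit 50-mer in capitals.
Gm23043 (snoRNA, chr4:51654548-51654648, 1746 copies): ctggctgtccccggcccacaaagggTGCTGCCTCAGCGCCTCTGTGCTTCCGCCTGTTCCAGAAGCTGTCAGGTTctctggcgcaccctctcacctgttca
Gm8748 (processed pseudogene, chr8:104068910-104069010): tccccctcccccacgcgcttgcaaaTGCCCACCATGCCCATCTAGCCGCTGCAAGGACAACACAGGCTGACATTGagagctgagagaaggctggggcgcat
4930513L16Rik (lincRNA, chr15:84905915-84906015): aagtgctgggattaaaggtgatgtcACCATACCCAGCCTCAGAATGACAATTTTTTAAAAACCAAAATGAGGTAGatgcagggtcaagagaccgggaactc
Gm49666 (TEC, chr16:71217890-71217990): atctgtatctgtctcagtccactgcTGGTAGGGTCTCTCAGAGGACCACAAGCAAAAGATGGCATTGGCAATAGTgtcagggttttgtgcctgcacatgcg
Gm38804 (antisense, chr6:48622648-48622748): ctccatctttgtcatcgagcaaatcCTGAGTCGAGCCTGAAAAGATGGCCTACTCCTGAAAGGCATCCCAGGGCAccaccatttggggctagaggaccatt
Mir125b-1 (miRNA, chr9:41581912-41582012): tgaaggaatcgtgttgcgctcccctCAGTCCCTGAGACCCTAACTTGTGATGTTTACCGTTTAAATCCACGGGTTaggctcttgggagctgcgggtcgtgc
Vmn2r-ps7 (unprocessed pseudogene, chr3:64443576-64443676): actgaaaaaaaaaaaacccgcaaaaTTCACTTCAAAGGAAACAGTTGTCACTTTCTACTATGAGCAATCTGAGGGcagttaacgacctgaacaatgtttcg
Snord23 (snoRNA, chr7:15940471-15940571): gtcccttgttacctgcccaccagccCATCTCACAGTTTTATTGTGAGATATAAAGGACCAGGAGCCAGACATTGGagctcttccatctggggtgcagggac
1700012D14Rik (processed transcript, chr7:111122503-111122603): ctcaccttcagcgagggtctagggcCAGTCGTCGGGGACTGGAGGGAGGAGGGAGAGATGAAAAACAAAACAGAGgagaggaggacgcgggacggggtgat
Tctn2 (processed transcript, chr5:124598771-124598871): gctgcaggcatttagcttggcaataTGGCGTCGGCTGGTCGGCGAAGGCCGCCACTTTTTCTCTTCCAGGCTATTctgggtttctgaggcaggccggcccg

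The members fell at 368 gene records, which is 1.15% of the 32088 noncoding records on these chromosomes (at protein-coding records the share was 1.52%). By the nearest TSS, 128 members (34.7%, 95% interval 30.0 to 39.7%) lay at processed pseudogenes, 66 (17.9%) at lincRNAs, 48 at TEC records and 34 (9.21%) at antisense transcripts. The remaining types with at least 10 members were miRNAs with 19, unprocessed pseudogenes with 17, snRNAs with 14 and snoRNAs with 11. These shares were close to the make-up of the annotation, in which processed pseudogenes are 30.7% of the noncoding records, lincRNAs 16.5%, TEC records 10.0% and antisense transcripts 9.22%. The share of records with a peak ran from 0.863% of snoRNAs (interval 0.505 to 1.47%) to 1.37% of TEC records (1.02 to 1.84%), and the intervals of all 8 types overlapped. Gene type thus did not separate records with a peak from those without at this number of peaks.

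**Figure D1:**
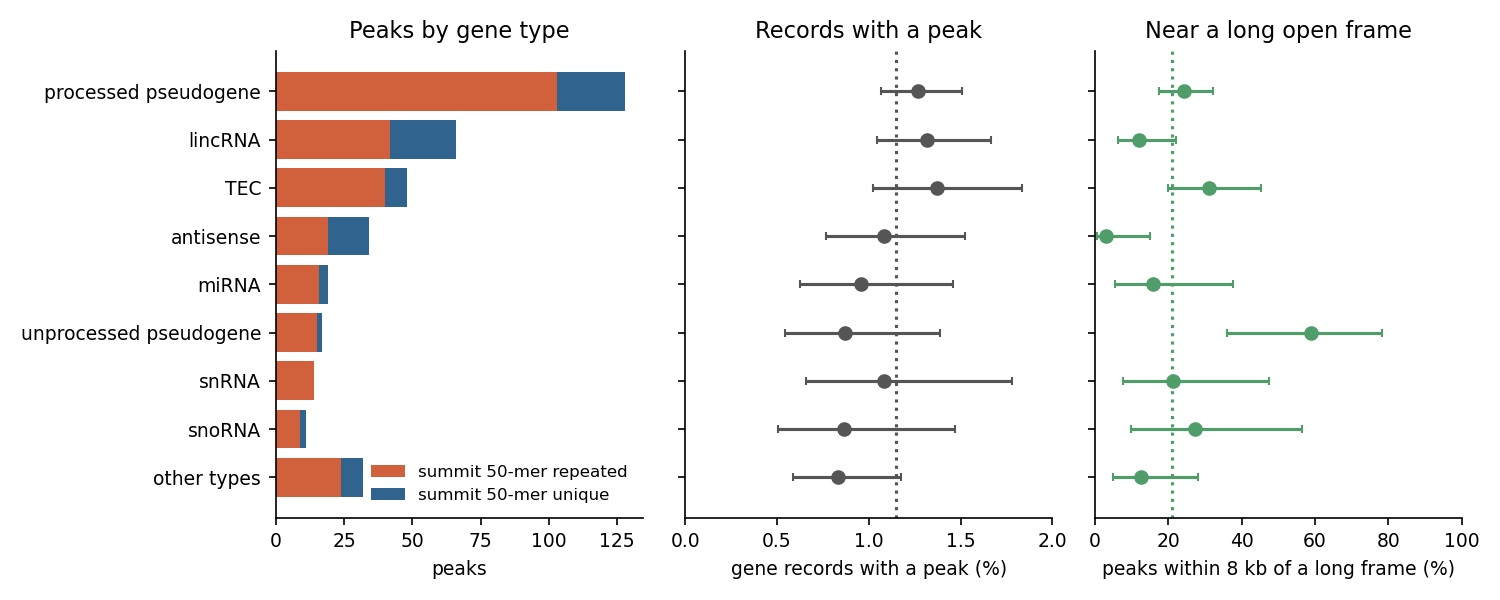
Left, the members by gene type of the nearest TSS, split into summits whose 50-mer is repeated (orange) or unique (blue). Middle, the percent of gene records of each type with a peak, and right, the percent of members within 8 kb of a long open frame, with 95% Wilson intervals as bars and the value over all types as a dotted line. The intervals in the middle panel overlap throughout, while unprocessed pseudogenes (58.8%) have the highest and antisense transcripts (2.94%) the lowest share on the right.

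Most genes had a single peak. There were 15 genes with 2 peaks and 2 with 3, the TEC record Gm37400 on chromosome 1 and the sense-intronic record Gm26543 on chromosome 10. At Gm37400 the summits were covered by 42, 15 and 14 fragments, and at Gm26543 by 11, 8 and 7. All 6 of these summits were in repeated sequence with 457 to 4417 copies, so by the 50-mers the peaks of each gene cannot be assigned to it alone. The 100-mer at the Gm37400 summit with 42 fragments had 1 copy.

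Noncoding promoters as a whole carried slightly fewer peaks than the rest of the chromosomes. The density was 4.22 peaks per Mb of window (95% exact Poisson interval 3.80 to 4.67, 369 peaks in 87.5 Mb) against 4.93 (4.84 to 5.02) outside all promoter windows and 4.83 (4.30 to 5.41) at protein-coding promoters. With windows of 1 kb to each side of the TSS the density was 4.75 (4.20 to 5.34), whose interval includes the value outside promoters. The windows also held less soft-masked sequence (30.0%) than the rest (34.7%). Soft-masking is the lower-case marking of repeats in the reference. Within soft-masked bases the density was 10.6 per Mb (9.39 to 11.9), against 11.8 (11.6 to 12.1) elsewhere and 5.60 (4.47 to 6.92) at protein-coding promoters.

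In sequence that is not soft-masked the order was different. Noncoding promoters held 1.49 summits per Mb (1.20 to 1.83, 91 peaks), 1.20 times the 1.24 (1.19 to 1.30) of the rest, and the interval of that ratio (0.964 to 1.47) includes 1. Protein-coding promoters held 4.59 (4.00 to 5.24, 218 peaks), 3.70 times the rest. On this measure noncoding promoters lay near the sequence outside promoters, and apart from protein-coding promoters.

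**Figure D2:**
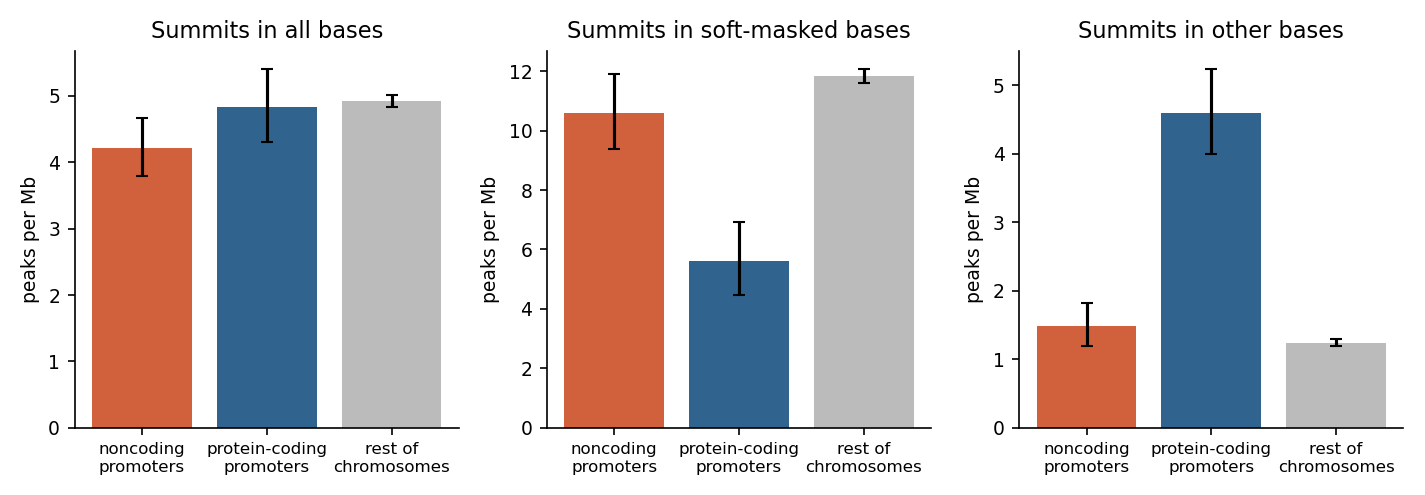
Peaks per Mb with the summit in any base (left), in soft-masked bases (middle) or in other bases (right) of noncoding promoter windows, protein-coding promoter windows and the rest of chromosomes 1 to 19 and X. Bars are densities from 0 and error bars are 95% exact Poisson intervals, which cover counting error only. In other bases the protein-coding bar stands at 4.59 and the noncoding bar at 1.49.

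Position was examined relative to the TSS, over all records and by gene type. Of the members, 287 (77.8%) had the summit upstream of the TSS, in a window that is mostly upstream, and 147 (39.8%) were within 500 bp of it. Around the TSSs, summits at protein-coding promoters were left out of the count and a summit was counted at each TSS it is near. The length was the number of TSSs times the range of distance. Bases of protein-coding promoter windows stayed in it, unlike in the densities above. Over all noncoding TSSs, unique summits were found at 1.18 per Mb within 1 kb of the TSS (0.933 to 1.48, 76 counts). The level was 0.891 (0.751 to 1.05) at 5 to 10 kb upstream and 0.904 (0.763 to 1.06) at 5 to 10 kb downstream, so that the intervals overlapped. Repeated summits gave 3.43 (2.99 to 3.91) within 1 kb, against 3.32 (3.04 to 3.61) and 2.98 (2.72 to 3.26).

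LincRNAs had 2.26 unique summits per Mb within 1 kb of the TSS (1.45 to 3.37, 24 counts), against 1.24 (0.856 to 1.75) in each flank, with overlapping intervals. Antisense transcripts had 2.20 (1.17 to 3.76, 13 counts) against 1.01 (0.568 to 1.67) upstream and 1.08 (0.618 to 1.76) downstream, again with overlap. At TEC records the rise was in repeated sequence, with 5.45 per Mb (3.80 to 7.58, 35 counts) against 2.49 (1.78 to 3.39) upstream and 1.81 (1.21 to 2.59) downstream, and here the intervals did not overlap. Unprocessed pseudogenes differed the other way, with 2.05 repeated summits per Mb within 1 kb (0.884 to 4.04, 8 counts) against 5.53 (4.15 to 7.22) at 5 to 10 kb upstream, though the 3.07 (2.07 to 4.39) downstream overlapped. No adjustment was made for the 8 types looked at. Records with a peak began in soft-masked sequence more often than records in general, over all noncoding types (38.6% against 19.3%) as at TEC records (65.9% against 32.1%). Processed pseudogenes had 0.863 unique summits per Mb within 1 kb (0.503 to 1.38) against 0.873 in each flank.

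**Figure D3:**
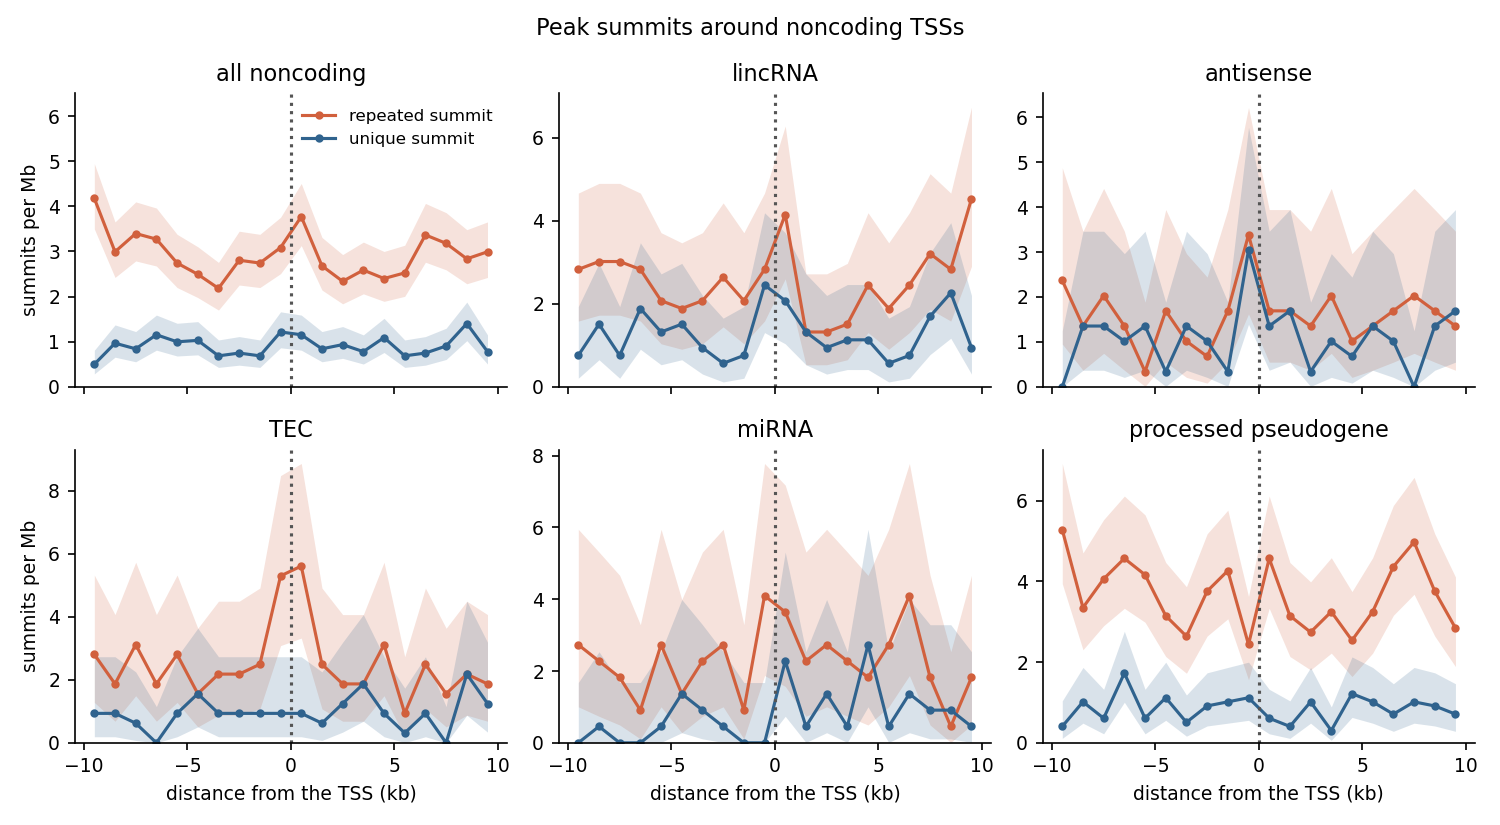
Summits per Mb in 1 kb bins from 10 kb upstream to 10 kb downstream of the TSS for all noncoding records and for 5 gene types, for repeated (orange) and unique (blue) summits, with 95% exact Poisson intervals as shading. The 2 bins beside the TSS of TEC records stand at 5.30 and 5.61 repeated summits per Mb, above the 2.49 of the bins next to them, and processed pseudogenes have no maximum at the TSS in unique summits.

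Between 2 and 2.5 kb upstream there were 54 members, whose medians were a fold enrichment of 4.89 and 8 fragments, with 18.5% of summits unique. Between 2.5 and 3 kb upstream 53 peaks missed the rule, with 4.85, 6 and 26.4%. In the first 500 bp downstream there were 82 members, with 5.00, 7 and 25.6%, and in the next 500 bp 65 peaks outside the rule, with 5.16, 7 and 18.5%.

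By repeat content the members stood between protein-coding promoters and other peaks, and nearer to the latter. At least 50% of the peak was soft-masked for 269 members (72.9%, interval 68.1 to 77.2%), against 22.8% at protein-coding promoters and 83.1% of other peaks. The differences were 50.1 percentage points (95% Newcombe interval 43.2 to 56.2) and -10.2 points (-15.0 to -5.88). Unique summits made up 73.9% of the peaks at protein-coding promoters, a difference of -50.4 points (-56.5 to -43.4), and 17.5% of other peaks, a difference of 6.04 points (1.93 to 10.7). Peaks of 1 pooled list are not replicates, and these intervals cover counting error only.

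The gene types divided in the same respect. Antisense members were the least repeated, with 15 of 34 summits unique (44.1%, 28.9 to 60.5%), a median of 2 copies and 60.2% of their bases soft-masked. LincRNAs followed with 24 of 66 unique (36.4%, 25.8 to 48.4%). Processed pseudogenes had 25 of 128 (19.5%, 13.6 to 27.2%), TEC records 8 of 48 (16.7%, 8.70 to 29.6%) and unprocessed pseudogenes 2 of 17. Of the antisense members, 24 of 34 (70.6%) lay inside a protein-coding gene, against 6 of 66 lincRNA members (9.09%). That contrast is largely set by how these types are defined, and the shares over all records of each type are not given here. Over all members, 95 summits (25.7%) lay in an intron of a protein-coding gene, 17 (4.61%) in an exon and 257 (69.6%) outside such genes. The median distance to a protein-coding TSS was 61382 bp. The rule left out summits in protein-coding promoter windows, which lengthens that distance, and values for other peaks are not given here.

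Members were supported by few fragments. Their summits held a median of 7 (quartiles 5 and 11, lowest 4, highest 72), against 6 at protein-coding promoters and 8 at other peaks. The authors' fold enrichment is the fragments at the summit over the local background, with a constant added to both, which lowers the ratio at small counts. Its median at members was 4.97 (95% interval 4.79 to 5.11), against 4.60 (4.45 to 4.89) and 5.25 (5.22 to 5.28). At a q-value of 0.001 or lower 225 members remained (61.0%, 55.9 to 65.8%), beside 65.4% of all peaks on these chromosomes. The difference from the peaks outside promoters, -4.91 points, had an interval that reached 0.00480. Support of 14 or more fragments was seen for 77 members (20.9%), a difference from other peaks of -6.03 points (-9.95 to -1.53).

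Fragments went with copy number. Unique members had a median of 5 fragments (range 4 to 14) and 66 of the 87 rested on 6 or fewer, members with over 100 and up to 1000 copies had a median of 8 (4 to 61), and those with over 1000 copies a median of 11 (4 to 72). Median fold enrichment was 4.27, 5.30 and 6.06 in these groups. The low counts limit what a single unique member shows. By type, the median fold ran from 4.54 at antisense transcripts (range 3.51 to 8.78) to 6.72 at unprocessed pseudogenes (3.63 to 11.6), with broad overlap.

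**Figure D4:**
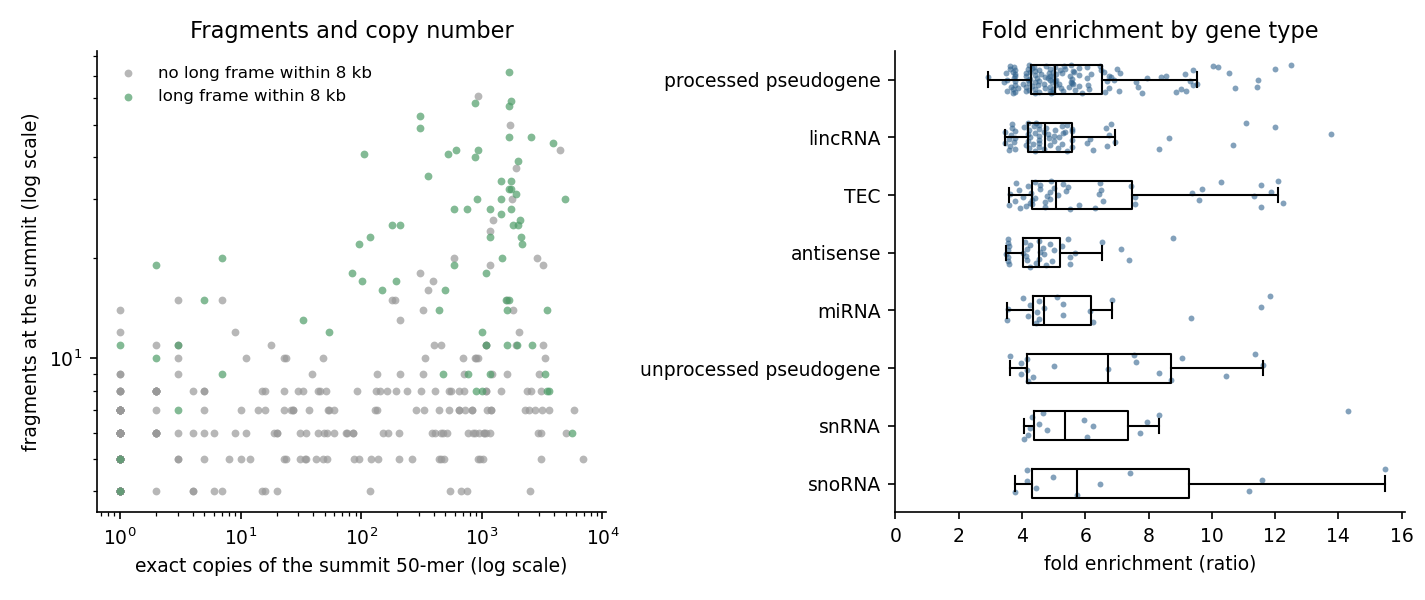
Left, fragments at the summit against exact copies of the summit 50-mer for the 369 members, both on log scales, with members within 8 kb of a long open frame in green. Right, fold enrichment of each member by gene type, with boxes from the lower to the upper quartile, the median as a line and whiskers to the last value within 1.5 times the box. Summits of a single copy reach at most 14 fragments, and most of the highest counts are green points with over 100 copies.

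The 10 members with the highest -log10 q were all 100% soft-masked, had 305 to 2564 copies and belonged to the largest sequence family, a group of summit sequences joined by alignment (at least 150 bp at 80% identity). The first was at Gm23043, a snoRNA record, with 59 fragments over a background of 2.88, a fold enrichment of 15.5 and a -log10 q of 49.9 (chr4:51653943-51654927, 1169 bp upstream of the record's start). Gm25020, an snRNA record, followed with 61 fragments and a fold of 14.3 (chr13:17202938-17203974), and the lincRNA Gm6999 had the most fragments of any member, 72, with a fold of 11.1 (chr14:79834488-79836216). The others were at the olfactory receptor pseudogene Olfr1267-ps1 (58 fragments, fold 12.3), AC154172.2 (50, 13.8), Wdr46-ps (53, 12.5), Gm27440 (46, 11.8), Gm20523 (46, 11.4), Gm8330 (57, 8.56) and Gm47164 (42, 12.1). These 10 peaks are therefore spread over 8 gene types, and have in common a sequence family that held 49.8% of all peaks on these chromosomes. Families were built through chains of alignments, so summits of the same family need not align to each other. Gm15619 led the antisense members with 25 fragments, a fold of 8.78 and 2002 copies. Of the 1746 exact copies of the Gm23043 summit 50-mer in the genome, 1422 lay in a peak.

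The largest family held 141 members (38.2%, 33.4 to 43.3%), a difference from other peaks of -13.1 points (-18.0 to -7.92). It took 12 of 17 unprocessed pseudogene members, 52 of 128 processed pseudogene members and 20 of 48 TEC members, but 5 of 34 antisense members. The second family held 24 members and the third 15. No alignment to another peak was found for 112 members (30.4%), against 20.4% of other peaks.

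Full-length LINE-1 retrotransposons carry a long second open reading frame that encodes a reverse transcriptase, so long frames outside annotated coding sequence were used as a landmark that needs no repeat annotation. Of the members, 78 (21.1%, 17.3 to 25.6%) lay within 8 kb of a stop-to-stop frame of at least 1000 codons, against 5.28% at protein-coding promoters and 31.3% of other peaks (difference from the latter -10.2 points, -14.1 to -5.63). Of these 78, 71 were near a frame with the catalytic motif of reverse transcriptases. The share with the motif among the frames near other peaks is not given here, so this count does not set the members apart. The summit was upstream of the frame in 72 of 78 and at 1500 to 2000 bp upstream in 38, with a median of 1698 bp over the 72. Members near a frame had a median of 21 fragments and a fold of 8.33, and those without one 6 fragments and 4.72.

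**Figure D5:**
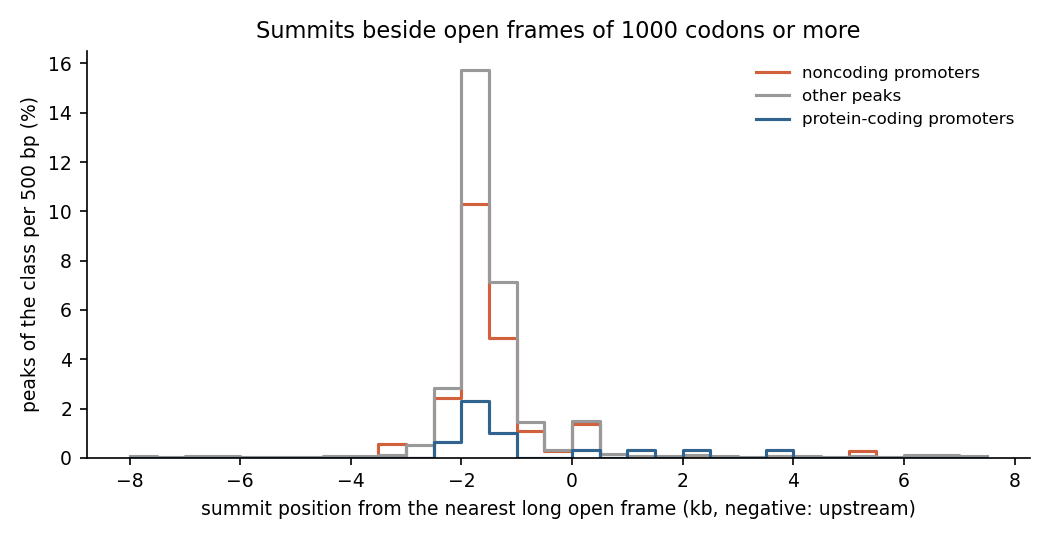
Percent of the peaks of each class per 500 bp of distance between the summit and the nearest open frame of at least 1000 codons, negative when the summit is upstream, within 8 kb. The maximum of noncoding promoter peaks (orange) lies between 2 and 1.5 kb upstream, the same bin as that of the other peaks (grey).

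The share near a long frame was 58.8% at unprocessed pseudogenes (10 of 17, interval up to 78.4%), 31.3% at TEC records (15 of 48), 24.2% at processed pseudogenes (31 of 128), 12.1% at lincRNAs (8 of 66) and 2.94% at antisense transcripts (1 of 34, 0.521 to 14.9%). The frame ran on the opposite strand to the noncoding record in 52 of the 72 members with the summit upstream of it, and on the same strand in 20 (27.8%, 18.8 to 39.0%). At processed pseudogenes it was opposite in 20 of 30, and at unprocessed pseudogenes in 9 of 10. Because the window lies mainly upstream of the record, a frame on the same strand would often lie over the record itself. The part of this geometry in the count was not tested.

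A further set of members lay inside processed pseudogene records. The summit fell within the first 500 bp of 26 processed or transcribed processed pseudogenes, 0.256% of the 10142 such records. None of these 26 was near a long frame, against 31 of the 108 whose summit lay outside the pseudogene. At least 50% soft-masked were 13 of the 26 and 85 of the 108 (78.7%), with a median of 19.5 and 132 copies. Aligned to protein-coding transcripts, 20 of the 26 had a parent at 90% identity or more over at least 90% of the record. Of all 10142 records, 3893 had such a parent, and 0.514% of those 3893 held a summit inside. The set was not free of the largest family, to which Gm3052, AC122330.1 and Gm48944 belonged. Gm48944 is also among the 20 with a parent.

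Copies of 2 housekeeping mRNAs led this set, Gapdh, which encodes a glycolytic enzyme, and Rps2, a protein of the small ribosomal subunit. Of 99 retrocopies of Gapdh, 5 had a summit inside (5.05%, 2.18 to 11.3%). They were covered by 7 fragments at Gm12671, 7 at Gm2606, 8 at Gm10359, 5 at Gm14760 and 7 at Gm12033, at folds from 4.22 to 5.69. Their summits lay between 155 and 226 bp from the start of the record, and they were at least 99.9% identical to Gapdh. Of 49 retrocopies of Rps2, 5 had a summit inside (10.2%, 4.44 to 21.8%), with 10 fragments at Gm7432, 6 at Gm11249, 8 at Gm45855, 7 at Rps2-ps10 and 5 at Gm12366, at folds from 3.87 to 6.63. In Rps2 copies the summits formed 2 positions, 324 and 336 bp in Gm7432 and Gm11249 and 207 to 232 bp in the other 3. Reads shared by identical copies were placed at random, so which of the copies carry the peaks is not known. The intervals treat copies as independent, which they are not. Parents were named after the values were seen, and these counts are a description.

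The summits of 2 copies of each are shown on the strand of the pseudogene, with the summit 50-mer in capitals. The capitals of Gm10359 begin inside those of Gm12671.
Gm12671 (Gapdh copy, chr4:91852464-91852564, 14 copies of the 50-mer): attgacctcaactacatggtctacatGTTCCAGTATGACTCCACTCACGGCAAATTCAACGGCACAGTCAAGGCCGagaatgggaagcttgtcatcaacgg
Gm10359 (Gapdh copy, chr5:105863465-105863565, 33 copies): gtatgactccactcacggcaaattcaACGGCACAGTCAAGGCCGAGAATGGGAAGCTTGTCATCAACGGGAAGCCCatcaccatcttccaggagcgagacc
Gm7432 (Rps2 copy, chr8:61381013-61381113, 24 copies): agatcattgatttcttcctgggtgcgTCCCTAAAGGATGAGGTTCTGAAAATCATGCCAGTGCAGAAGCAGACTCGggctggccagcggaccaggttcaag
Gm45855 (Rps2 copy, chr8:105585943-105586043, 16 copies): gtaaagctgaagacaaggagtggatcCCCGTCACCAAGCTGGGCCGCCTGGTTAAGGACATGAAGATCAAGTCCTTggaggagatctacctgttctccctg

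Rpl21, of the large ribosomal subunit, had summits inside 2 of 68 retrocopies, Rpl21-ps15 and Gm10240, with 8 fragments each and folds of 6.75 and 6.69. Ferritin light chain copies were represented by Gm15590 and Ftl2-ps, with 8 fragments each and folds of 5.91 and 5.55, whose closest protein-coding record was Ftl1-ps1 at 99.5 and 99.1% identity. No summit lay anywhere in the gene records of the 10 parents found, a count with a limit of 3 of 10. The share of all protein-coding records with a summit anywhere inside is not given here. Because reads shared by identical copies were placed at random, this absence cannot show that parents differ from their copies. The Gapdh and Rpl21 copies were 100% soft-masked at the peak, and the Rps2 copies between 15.1 and 30.4%, so soft-masking here is not a measure of transposable elements alone. In these 14 retrocopies the summit 50-mer had 4 to 35 exact copies, of which 2 to 5 lay in peaks.

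Members with a unique summit have no other exact copy of the summit 50-mer, but near copies were not counted. Some of them, such as AC127693.3 in the largest family and Gm13625, aligned to other peaks, so their placement is less sure. The most significant unique member was at 1700012D14Rik, a processed transcript, 131 bp downstream of the TSS (chr7:111122420-111122613). It had 14 fragments over a background of 0.740, a fold enrichment of 8.62 and a -log10 q of 10.9. The next were at Gm49666 (TEC, 9 fragments, fold 7.57), Gm8748 (processed pseudogene, 12, 7.07), 4930513L16Rik (lincRNA, 8, 6.75) and AC127693.3 (processed pseudogene, 11, 6.48). Gm13625, Gm46436, Gm38804, Gm37770 and Tctn2 completed the first 10, with 7 to 9 fragments. Of these 10, 3 were free of soft-masked bases and 2 were masked throughout, and AC127693.3 was the one within reach of a long frame. Tctn2 encodes a ciliary transition zone protein, but the record that carried the peak is typed as a processed transcript.

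Several unique members lay in or beside genes of known function. Runx2os1, antisense to the osteoblast regulator Runx2, had a unique summit in a Runx2 exon with 7 fragments and a fold of 5.45. Snord23, a box C/D-type snoRNA record in an intron of Nop53, had a unique summit 1651 bp upstream of the record with 6 fragments and a fold of 4.98. Tspan32os had a unique summit in an exon of Tspan32 with 6 fragments, and A930016O22Rik one in an exon of Ckm, the muscle creatine kinase, with 4. These genes were chosen after their values were seen, and counts of 4 to 7 fragments without a control library leave each of them as a weak peak.

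Of the 21 miRNA records with a summit in the window, 17 were the nearest record to a member. By symbol 5 of the 21 matched RefSeq (GRCm38.p6), Mir125b-1, Mir433, Mir127, Mir3472 and Mir692-2. Mir127 shared the peak of Mir433, and Mir692-2 that of the ferritin retrocopy Ftl2-ps. Mature sequences are shown with the seed, bases 2 to 8, in capitals. No 2 of these 8 had the same seed.
mmu-miR-125b-5p (Mir125b-1): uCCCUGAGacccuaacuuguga
mmu-miR-125b-1-3p (Mir125b-1): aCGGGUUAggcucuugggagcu
mmu-miR-433-5p (Mir433): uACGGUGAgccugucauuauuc
mmu-miR-433-3p (Mir433): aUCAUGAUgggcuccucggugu
mmu-miR-127-5p (Mir127): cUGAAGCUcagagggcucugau
mmu-miR-127-3p (Mir127): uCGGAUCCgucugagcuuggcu
mmu-miR-3472 (Mir3472): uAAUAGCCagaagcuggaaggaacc
mmu-miR-692 (Mir692-2): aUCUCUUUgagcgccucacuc

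The Mir125b-1 summit lay in the hairpin itself, 36 bp from its start, in unique sequence with 5 fragments and a fold of 4.54, and the stretch shown above contains both mature arms. The Mir433 summit was 357 bp upstream of the hairpin, in an exon of the imprinted gene Rtl1, with 9 fragments, a fold of 6.23 and 3 copies, and the same summit was 1488 bp upstream of Mir127. At Mir3472 on chromosome X it was 297 bp downstream, with 6 fragments, a fold of 5.30 and 946 copies. The hairpin start is not the start of the primary transcript, so these positions do not place EHMT2 at a miRNA promoter. The other 16 miRNA records carry Gm names, and the strongest of them, Gm27440, had 46 fragments and 1692 copies.

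No record on 6 fixed lists of noncoding RNAs carried a peak in the window. The lists did not include Mir125b-1, Mir433 or Mir127, which had a summit in the window as described above. Of 82 noncoding records in 6 lists (the X-inactivation centre, imprinted RNAs, abundant nuclear RNAs and snoRNA hosts, pluripotency transcripts, developmental RNAs and pseudogenes of 2-cell families), 0 had a summit at the promoter, which allows a share of up to 3.66% and is not distinguishable from the 1.15% of all noncoding records. The largest list, 34 pluripotency records that include the Platr transcripts, and the 10 imprinted records found by symbol were at 0. The list of pseudogenes of 2-cell families held only 1 record and the X-inactivation list 5, too few to describe those groups. A peak lay within 10 kb of the record for 10 of the 82 (12.2%, 6.76 to 21.01%), an interval that includes the 9.63% of all noncoding records. Among the 10 were Tsix, the antisense partner of Xist, Snhg14, Sox2ot, Pvt1, Platr2, Platr28 and Platr32.

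By chromosome, members were most frequent among the peaks of chromosome 13 (31 of 599, 5.18%, 3.67 to 7.25%) and least frequent on X (14 of 1022, 1.37%, 0.818 to 2.29%), against 2.94% over all. The stretch of at most 1.5 Mb with the most members was also on chromosome 13, where 7 of the 15 peaks with a summit at chr13:65402334-66862483 were members, at Cbx3-ps4, Gm27501, Gm48111, Gm48165, Gm48170 and Gm7896. None of the 7 was unique, with 2 to 473 copies, and their median soft-masking was 16.4%. Outside that stretch the share on chromosome 13 was 4.11%.

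The mean GC content in 100 bp on either side of the summit was 51.6% at the members, 53.5% at protein-coding promoters and 51.7% at other peaks, with SDs over peaks of 9.18, 9.30 and 10.1. In the summit base and 50 bp on either side there were on average 2.67 CpG dinucleotides, against 3.59 at protein-coding promoters, 2.38 at other peaks and 2.13 at the TSSs of all noncoding records. Among members the mean was 1.99 at unique summits and 3.62 in the largest family. On either strand the ETS core CCGGAA was present in 10 of 369 members (2.71%, 1.48 to 4.92%), 4.58% of all peaks and 2.63% of the 32088 TSSs. The E-box CACGTG (7 members, 1.90%) was in 1.52% of all peaks and 1.50% of TSSs, the E2F-type GGCGGGA (6, 1.63%) in 1.52 and 1.10%, and TGCCGC (7, 1.90%), the core of the ZFP57 motif, in 0.885 and 2.39%. The members' intervals included both values for the ETS, E-box and E2F-type motifs, and for TGCCGC (0.922 to 3.86%) the value of the TSSs but not that of all peaks. A match is a description of the letters in the window and not a bound site.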

How the data were processed

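Fragments of 2 anti-HA ChIP-exo replicates were pooled by the authors. Per the study's methods and the submitters' notes, reads were trimmed, aligned to mm10 with STAR 2.7.10 (multimapping reads written at 1 random best site), freed of duplicates (Picard 2.26.0) and High Signal Regions (SAMtools 1.14), and peaks were called with MACS2 2.2.6 without a control and kept at q below 0.05. The authors deposited for each peak a score (10 times −log10 q), the fold enrichment as a ratio, and −log10 p and −log10 q.

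Fragments at the summit were recovered as the whole number that gives the deposited fold and −log10 p within 0.0001 (a single solution for 99.96% of peaks and all members). Genes came from GENCODE vM21 and sequence from GRCm38.p6. The tool behind the soft-masking is not given in the sources used here. Copy numbers were checked by direct search for 12 of 12 summits. Families and parents were aligned with minimap2 2.31-r1302, and analysis used Python 3.11.15. Intervals are 95%, cover counting error only, and treat peaks as independent, which they are not. No test was run, since the pooled list has no replicates. A count of 0 is given with the limit of 3 counts. Named members were the 10 highest by −log10 q, the 10 highest with a unique summit, the highest of each type with at least 10 members, the genes with most peaks and the members of fixed lists. The members and lists were chosen with earlier results of these data known. The 13 peaks on chromosome Y, 0 of them at noncoding promoters, and 2 on the mitochondrial genome were left out.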

Additional observations from a re-analysis of the deposited data

How the results depend on the processing

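Across 59 alternatives for 9 results, 44 stayed within 1.5 times the count or within the 95% interval of the value reported, and 15 did not. At a q-value of 0.001 or lower 225 members remained, with a density of 2.57 peaks per Mb, 90.9% of bases soft-masked, 12.9% unique summits, a median of 9 fragments, a median fold of 5.95, 30.2% near a long frame and a mean GC of 53.5%. With q at most 0.01 the density was 3.57 per Mb, unique summits 17.6% and median fold 5.27. These thresholds remove weak peaks by construction. Windows of 1 kb to each side of the TSS gave 4.75 peaks per Mb. Counted per peak, 72.9% were at least 50% soft-masked, beside 84.5% of bases. With 100-mers 38.5% of summits were unique, and with frames of 500 codons or more 39.3% of members were near one, both by construction. No replicate could be left out and no pairing could be used, since both replicates went into 1 list of peaks. With a median of 7 fragments a summit, single weak members are limited by depth.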
